A study of Homo sapiens with 4 samples.

Results

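Antisense long noncoding RNA genes that are represented by a single transcript are described here. They are genes on chromosomes 1 to 22 that GENCODE release 29 classes as antisense and that have exactly 1 row in a deposited table of noncoding transcripts. The rule found 3990 such genes among 5579 antisense genes with a row, and among 106179 transcripts in all. A further 1482 antisense genes on the same chromosomes had 2 or more rows, and 81 single-row antisense genes lay on X, Y or unplaced scaffolds. The rule uses annotation and no measured value.

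The study sequenced total RNA of HepG2, an established human liver cancer line. It compared 2 libraries of oxaliplatin-resistant HepG2 cells with 2 libraries of wild-type HepG2 cells, and its stated question was which long noncoding RNAs differ between them. Oxaliplatin is a platinum drug that forms adducts on DNA, and the resistant cells were obtained by selecting HepG2 with the drug, at a dose and for a time not stated here. The labels give no treatment of either group at harvest, and say neither whether the resistant cells are 1 clone nor whether each library is a culture of its own. The p-values therefore measure only the spread between these libraries.

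Antisense transcripts are made from the strand opposite a neighbouring gene, often a protein-coding one. Some start beside the promoter of that gene and run away from it, some run into its tail end, and many lie wholly inside its span, where their exons face its introns. Individual antisense RNAs are known to affect the facing gene through chromatin, transcription, splicing or RNA stability, while for most of the class no function is known. The deposited table holds noncoding transcripts, so a coding gene is seen here only through its noncoding isoforms, such as retained-intron and processed transcripts, and its mRNA is not measured. The sources used here do not state whether the library kit kept strand. It is therefore not known whether reads of an antisense exon were kept apart from reads of the facing exon where exons overlap. The same holds for reads of unspliced partner RNA where an intron is faced.

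Sequences of 4 members are shown with the stretch that faces coding sequence in capitals, so that the overlap can be seen. These 4 were picked after their values were seen and do not stand for the class. Other members of small p, such as AC092343.1 and CTB-178M22.2, face no coding sequence. They were read from the GENCODE release 29 transcripts, on GRCh38, in the direction of the antisense RNA. SMC5-AS1 is the member of smallest p with a higher level in resistant cells, and exon 2 of its 4 exons, at chr9:70218315-70218485 on the minus strand, has 149 of its 171 bases opposite coding sequence of MAMDC2. AC110491.2 is the member of smallest p with a lower level, and exon 1 of its 6 exons, at chr3:97874498-97874691 on the minus strand, lies with all 194 bases opposite coding sequence of CRYBG3. AC130324.2 has a stretch of 200 bases in exon 2 of its 2 exons, at chr17:30834430-30834629 on the minus strand, that lies wholly opposite coding sequence of ATAD5. AL360091.3 is shown as the contrasting case, since the first 200 bases of exon 1 of its 2 exons, at chr1:212331514-212331713 on the minus strand, face an intron of PPP2R5A and hold no capitals.
SMC5-AS1: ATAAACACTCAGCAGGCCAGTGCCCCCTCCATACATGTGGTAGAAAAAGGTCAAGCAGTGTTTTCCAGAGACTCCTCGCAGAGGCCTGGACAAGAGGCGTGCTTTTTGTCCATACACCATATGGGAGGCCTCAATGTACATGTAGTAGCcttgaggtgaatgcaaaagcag
AC110491.2: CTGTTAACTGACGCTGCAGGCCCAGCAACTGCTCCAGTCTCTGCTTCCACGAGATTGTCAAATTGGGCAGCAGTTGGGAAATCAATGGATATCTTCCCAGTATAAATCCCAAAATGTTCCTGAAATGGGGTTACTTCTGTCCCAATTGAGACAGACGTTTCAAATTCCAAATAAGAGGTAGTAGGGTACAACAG
AC130324.2: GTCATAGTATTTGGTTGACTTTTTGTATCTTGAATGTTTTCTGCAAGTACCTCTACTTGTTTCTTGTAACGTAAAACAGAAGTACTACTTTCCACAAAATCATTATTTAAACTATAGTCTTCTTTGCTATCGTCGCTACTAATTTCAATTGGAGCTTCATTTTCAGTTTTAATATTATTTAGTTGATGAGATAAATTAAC
AL360091.3: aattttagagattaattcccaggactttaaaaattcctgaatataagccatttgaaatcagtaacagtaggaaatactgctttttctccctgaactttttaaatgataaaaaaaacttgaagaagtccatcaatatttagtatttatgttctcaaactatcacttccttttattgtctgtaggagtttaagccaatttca

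For 277 members, RefSeq on GRCh38.p14 gives a promoter window, from 250 bases before to 50 after the start, whose start lies within 50 bases of the release 29 start. Of these, 84 passed the expression filter described with the comparison. The promoters of the 3 members of smallest p in each direction were not among the matched windows. The 2 windows below are those of DEPDC1-AS1 (chr1:68496426-68496725, plus strand) and FBXL19-AS1 (chr16:30923220-30923519, minus strand), which start 545 and 214 bases from the start of a coding gene on the other strand. They were picked after their values were seen, from genes with higher counts in both resistant libraries than in both wild-type libraries. CARD8-AS1, OCIAD1-AS1 and TRIM31-AS1 were also higher on average in resistant cells, with a smaller p than FBXL19-AS1, and their windows are not shown. No window of a lower member is shown. Capitals mark a GC box, the motif GGGCGG or its reverse complement CCGCCC, which is the binding motif of Sp-family factors.
DEPDC1-AS1: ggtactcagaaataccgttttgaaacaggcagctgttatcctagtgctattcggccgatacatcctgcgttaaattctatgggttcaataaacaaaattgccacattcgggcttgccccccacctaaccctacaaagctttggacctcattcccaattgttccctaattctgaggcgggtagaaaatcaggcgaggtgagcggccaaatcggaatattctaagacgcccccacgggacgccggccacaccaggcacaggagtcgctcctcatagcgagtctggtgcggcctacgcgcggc
FBXL19-AS1: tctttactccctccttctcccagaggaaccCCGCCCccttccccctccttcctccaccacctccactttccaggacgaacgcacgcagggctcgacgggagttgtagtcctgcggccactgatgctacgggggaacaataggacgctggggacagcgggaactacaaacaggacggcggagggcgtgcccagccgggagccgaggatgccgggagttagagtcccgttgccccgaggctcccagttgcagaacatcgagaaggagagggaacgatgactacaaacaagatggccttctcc
The FBXL19-AS1 window holds 1 GC box and the DEPDC1-AS1 window none. Searched on both strands, a GC box was present in 35.7% of the 84 windows of members that passed the filter, in 23.8% of the 193 windows of members that did not, and in 15786 of all 35116 promoter windows. The share was 65.4% among the 52 windows of members that start within 1000 bases of a coding start on the other strand, against 18.7% among the other 225. The TATA motif TATAAA was found in 3 of the 52 windows near a coding start and in 27 of the other 225. A match describes these letters only.

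Most members are short and spliced once. The median exonic length was 570 bases, with quartiles of 454 and 895. There were 671 members with 1 exon, 2132 with 2, 713 with 3 and 474 with 4 or more. A protein-coding gene on the other strand overlapped 3479 members by at least 1 base of span, and where there were several the one with the most overlapping bases was taken as the partner. Exons of member and partner overlapped in 1911 cases, and the member's exons faced introns only in 1568, while 511 members overlapped no coding gene on the other strand. By arrangement, 2495 members lay within the partner, 501 were head to head with it (each start inside the other gene), 425 were tail to tail and 58 spanned it. The partners were 2841 different genes, of which 480 faced 2 or more members, so pairs that share a partner are not independent.

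As a class these genes took a small share of the counts. Members took 0.437% and 0.439% of all counts in the resistant libraries, and 0.440% and 0.461% in the wild-type libraries. At least 1 count was found for 1593 and 1584 members in the resistant libraries, and for 1442 and 1405 in the wild-type libraries, which were also the less deeply sequenced. Library totals were 43473826 and 44063444 counts in resistant cells, and 38113398 and 34898860 in wild-type cells. The 10 members of highest total held 27.7% and 25.6% of member counts in the resistant libraries and 36.3% in each wild-type library. With 2 libraries a group the smallest exact two-sided permutation p is 0.33, so these shares were compared without a test.

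The labelled cell type was checked against hepatocyte lineage genes, of which 16 of the 24 listed had noncoding rows. The fetal liver RNA H19 had 5958 and 5116 counts in the resistant libraries, and 6486 and 8186 in the wild-type libraries, and the urea cycle gene CPS1 had 2308 and 1724, against 2118 and 2338. Noncoding rows of 9 others, among them AFP, TTR, SERPINA1 and TF, were at 0 in all 4 libraries, and their mRNAs are not measured here. The summed level of the list was 190 and 157 CPM (library-scaled counts) in the resistant libraries, and 226 and 302 CPM in the wild-type libraries. Nearly all of it came from H19 and CPS1. The other genes with a count, ALB, APOA2, APOE, ASGR1 and FGG, had at most 74 counts in a library. Fibroblast and endothelial genes summed to 156 and 137 CPM in resistant cells, and 131 and 177 CPM in wild-type cells. VIM, a gene that many cultured cell lines also express, was at the top, and COL1A2, KDR, LUM and PDGFRA were at 0. COL5A1 had 2512 and 2148 counts in resistant cells, and 1228 and 1156 in wild type, and FBN1 had 621 and 643, against 217 and 269. VIM, with 3125 and 2782 against 3173 and 4251, and PDGFRB, with 44 and 11 against 106 and 160, went the other way. Blood cell genes stayed under 1 CPM in every library. The part of these differences in the values of antisense genes was not tested, and fewer cells of a type cannot be told apart from less RNA per cell.

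Whether a member was seen at all went with its structure. An expression filter of edgeR at a minimum count of 10 kept 1078 members (27.0%), against 39.9% of all transcripts, 21.4% of transcripts of antisense genes with 2 or more rows and 15.6% of lincRNA genes with 1 row. At least 1 count in the 4 libraries was found for 2123 members (53.2%). The filter kept 43.1% of head-to-head members, 34.8% of tail-to-tail members and 21.4% of members within their partner. It kept 33.2% of members whose exons overlap partner exons, 18.0% of those that face introns only and 31.5% of those with no partner. Members that start within 1000 bases of a coding start on the other strand passed in 46.5% of 669 cases, and members that start farther away in 23.1% of 3321.

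The exon count separated the members as strongly. Among members of 1 exon 45.8% passed the filter and 84.1% had a count, while among members of 2 or more exons 23.2% passed and 47.0% had a count. The order held within each overlap class, with 51.3% of 1-exon members and 28.6% of others passing where exons overlap, 30.1% and 16.3% where only introns are faced, and 56.2% and 26.3% where there was no partner. Tested members of 1 exon were longer, with a median of 1402 bases against 635, and stood lower per length, with a median of 0.725 CPM per kb of exon against 1.38. Detection in counts and level per kb thus ran in opposite orders. The level covers only members that passed the filter, and at the same minimum count a longer member passes at a lower level per kb. Nothing is therefore read from the opposite orders.

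**Figure D1:**
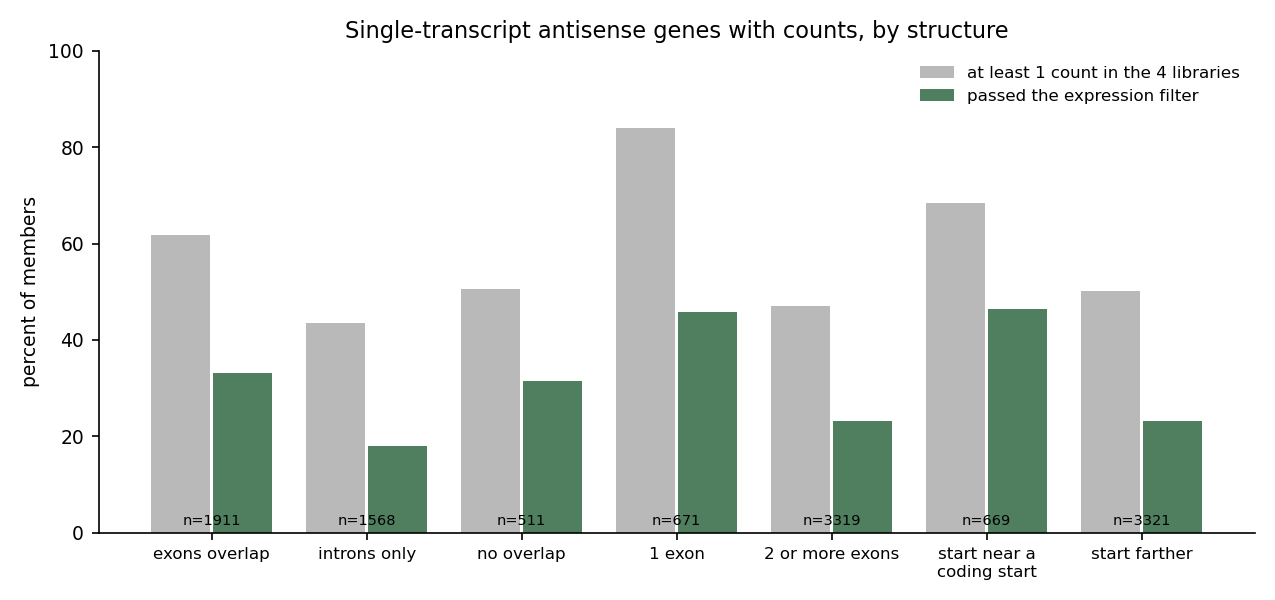
Percent of members with at least 1 count in the 4 libraries (grey) and percent that passed the expression filter (green), by overlap with the coding partner, by exon count and by distance of the start from a coding start on the other strand, with the number of members under each pair of bars. Members of 1 exon had a count in 84.1% of cases, against 47.0% for members of 2 or more exons.

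The 5 highest levels per length belonged to spliced members that lie head to head or tail to tail with a coding gene. AL590666.2, tail to tail with BCAN, the gene of the proteoglycan brevican, had 16003 and 18286 counts in the resistant libraries, and 18837 and 16977 in the wild-type libraries, a mean of 595 CPM per kb. No noncoding count fell to BCAN in any library. AC023043.1, tail to tail with ELP2, a subunit of the Elongator complex, had 7677 and 5315 counts in resistant cells, and 8683 and 10011 in wild-type cells, or 342 CPM per kb. AC090912.1, head to head with RBBP8, whose protein CtIP starts the resection of DNA ends, had 7906 and 5042 counts, against 4903 and 2557 in wild type, or 220 CPM per kb.

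AL133346.1, head to head with CTGF, a secreted matrix-associated protein, had 1509 and 2938 counts in resistant cells, and 3515 and 4649 in wild-type cells, and averaged 171 CPM per kb. AL441992.1, tail to tail with ZER1, a substrate adaptor of a ubiquitin ligase, had 3009 and 3062 counts, against 3279 and 3493 in wild type, and averaged 153 CPM per kb. None of these 5 passed the test of the comparison. Their edgeR log2 fold changes, resistant over wild type, ran between -1.25 for AL133346.1 and 0.44 for AC090912.1, with standard errors of 0.52 and 0.47. At the level of AL590666.2 the libraries of a group were close, at 384 ± 45.8 CPM in resistant cells and 518 ± 6.33 CPM in wild-type cells (SD, n = 2 each).

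No member differed between resistant and wild-type cells at an adjusted p under 0.05 in edgeR's quasi-likelihood test with Benjamini-Hochberg adjustment over 42393 transcripts, and neither did any other transcript (0% of all tested). The smallest adjusted p of any transcript was 0.329. At an unadjusted p under 0.05 there were 88 members, 60 of them on average higher in resistant cells and 28 lower. That is 8.16% of those tested, against a background of 7.74% of all transcripts, so the share was near the background. By direction, 5.57% of tested members were higher, against 4.56% of all transcripts, and 2.60% were lower, against 3.18%. DESeq2 called 58 members at an adjusted p under 0.05, 42 higher and 16 lower, beside 5.33% of all tested transcripts, and limma-voom called 0. The median log2 fold change was -0.01 for members and 0.02 for all tested transcripts.

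The split between higher and lower members depended on which libraries were used. Leaving out resistant replicate 1 gave 22 higher (1.69%) and 42 lower (3.23%) members at an unadjusted p under 0.05, where 3.29% of all transcripts were higher and 3.34% lower. Leaving out resistant replicate 2 gave 17 higher (1.29%) and 30 lower (2.28%), beside 3.04% and 3.38% of all transcripts. Without wild-type replicate 1 there were 74 higher (5.43%) and 28 lower (2.05%), beside 5.97% and 3.18%, and without wild-type replicate 2 there were 71 (5.14%) and 24 (1.74%), beside 5.39% and 3.04%. The balance over all transcripts also shifted toward higher when a wild-type library was left out. Levels of the resistant and wild-type libraries did not overlap for 451 members, 232 higher and 219 lower in resistant cells, or 41.8% of those tested, against 40.3% of all transcripts (21.4% higher and 18.9% lower).

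Many of the members with the smallest p had counts in 1 group only. There were 41 tested members with 0 counts in both wild-type libraries, or 3.80%, beside a background of 2.53% of all tested transcripts, and 9 with 0 counts in both resistant libraries, or 0.835% beside 1.14%. Such members passed the filter through the other group alone and so had to differ, and their number is given as a description. All 50 had 2 or more exons, and all 50 are among the 88 at an unadjusted p under 0.05. Without them 38 of 1028 members remained, 19 higher and 19 lower, or 3.70%, against 4.29% of all transcripts counted in both groups. The excess of higher over lower members thus lay in those at 0 in 1 group. A fold against 0 is a lower bound, computed with 3 counts in each library at 0.

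SMC5-AS1, a 4-exon RNA whose start lies 96 bases from the start of SMC5, had 1603 and 2165 counts in the resistant libraries, and 0 and 0 in the wild-type libraries. It was at least 486-fold higher in resistant cells (unadjusted p = 0.00135, edgeR adjusted p = 0.329). SMC5 encodes a core subunit of the SMC5/6 complex, which acts in DNA repair. Its noncoding transcripts summed to 1719 and 1986 counts in resistant cells, and 1167 and 800 in wild-type cells, a log2 fold change of 0.54 ± 0.32 (SE, unadjusted p = 0.168). The antisense gene thus stood at 0 in wild-type libraries in which the gene that starts beside it was counted. MAMDC2, whose coding exon it faces tail to tail, had 6 counts in resistant replicate 1 and 0 in the other 3 libraries.

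Spliced RNAs inside coding genes followed. AC090579.1 faces introns of OXR1, a gene of oxidative stress resistance, and had 610 and 753 counts in resistant cells, and 0 and 0 in wild type, at least 176-fold higher. AL360091.3, inside PPP2R5A, a regulatory subunit of protein phosphatase 2A, had 306 and 365 counts in resistant cells, and 0 and 0 in wild type, at least 86.4-fold higher. The noncoding sum of OXR1 was 109 and 88 counts in resistant cells, and 86 and 59 in wild type (log2 fold change 0.06), and that of PPP2R5A was 723 and 280, against 508 and 282 in wild type (log2 fold change -0.03). AC092343.1, inside the cAMP phosphodiesterase gene PDE4D, had 131 and 136 counts in resistant cells, and 0 and 0 in wild type, at least 34.4-fold higher, while PDE4D itself had 103727 and 72287 noncoding counts in resistant cells, and 165349 and 75200 in wild type.

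AC007163.1 was the one of the 8 higher members of smallest p that was counted in all 4 libraries. It starts inside BZW1, a regulator of translation initiation, and had 154 and 164 counts in resistant cells, and 13 and 11 in wild-type cells. The mean was 3.56 ± 0.248 CPM in resistant cells and 0.347 ± 0.0197 CPM in wild-type cells (SD, n = 2 each), 10.3-fold higher, with an edgeR log2 fold change of 3.35 ± 0.48 (SE) and an adjusted p of 0.329. The groups did not overlap. BZW1 had 2123 and 1998 noncoding counts in resistant cells, and 1068 and 774 in wild type, a log2 fold change of 0.78 at an unadjusted p of 0.0572.

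The remaining 3 of the 8 were again at 0 in both wild-type libraries. AC026347.1, tail to tail with the splicing regulator MBNL1, had 300 and 168 counts in resistant cells, and AC007679.1, tail to tail with INO80D, a subunit of the INO80 chromatin remodeller, had 89 and 99. AC068533.3, tail to tail with CRCP, a subunit of RNA polymerase III, had 207 and 131. Their lower bounds were 59.9-fold for AC026347.1, 24.2-fold for AC007679.1 and 43.3-fold for AC068533.3.

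**Figure D2:**
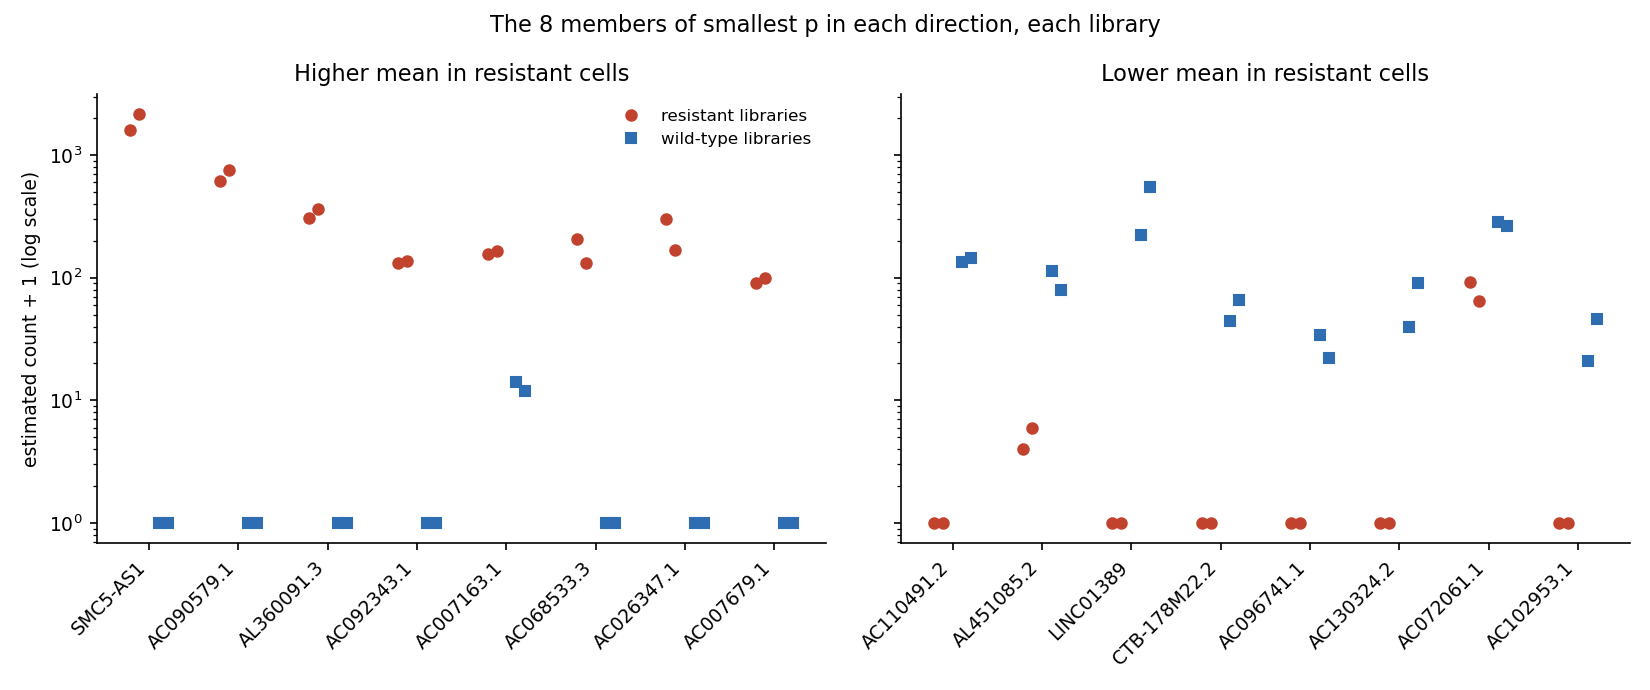
Estimated counts plus 1, on a log axis, in each resistant library (red circles) and each wild-type library (blue squares) for the 8 members of smallest p that were higher in resistant cells (left) and the 8 that were lower (right). All but AC007163.1, AL451085.2 and AC072061.1 stood at 0 in both libraries of 1 group.

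Of the 8 lower members of smallest p, 6 were at 0 in both resistant libraries. AC110491.2, which faces coding exons of CRYBG3, had 0 and 0 counts in the resistant libraries, and 134 and 145 in the wild-type libraries, at least 60.4-fold lower (unadjusted p = 0.00279, edgeR adjusted p = 0.329). LINC01389, which overlaps no coding gene on the other strand, had 0 and 0 in resistant cells, and 223 and 552 in wild type, at least 170-fold lower. AC130324.2, opposite coding exons of ATAD5, which unloads the clamp PCNA from DNA, had 0 and 0 in resistant cells, and 39 and 90 in wild type, at least 28.3-fold lower. The noncoding sum of ATAD5 was 131 and 111 counts in resistant cells, and 176 and 129 in wild type (log2 fold change -0.71, unadjusted p = 0.169). CTB-178M22.2 inside the adhesion gene TENM2 had 43 and 65 counts in wild type, AC096741.1 inside SH3RF1 had 33 and 21, and AC102953.1, with no partner, had 20 and 45, all with 0 in both resistant libraries.

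AL451085.2 and AC072061.1 were the lower members of this set that were counted in all 4 libraries, and both have 1 exon. AL451085.2 lies within PYGO2, a coactivator in Wnt signalling, and had 3 and 5 counts in resistant cells, and 113 and 78 in wild-type cells. Its mean was 0.0899 ± 0.0339 CPM in resistant cells and 2.75 ± 0.548 CPM in wild-type cells (SD, n = 2 each), 30.6-fold lower, and edgeR put the log2 fold change at -4.89 ± 0.65 (SE, adjusted p = 0.329). AC072061.1 is head to head with CDK13, a kinase of RNA polymerase II, and had 91 and 64 counts in resistant cells, and 283 and 264 in wild type. That is 4.58-fold lower, and edgeR put the log2 fold change at -2.19 ± 0.45 (SE, adjusted p = 0.366), and the groups did not overlap.

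The members' exon count also went with how closely the libraries of a group matched. Among members of 2 or more exons that had 100 or more counts in a resistant library, 53 of 280 had 0 in the other resistant library, and in wild type the number was 62 of 246. Among members of 1 exon it was 0 of 75 in resistant cells and 0 of 66 in wild type. Single-transcript lincRNA genes had the same order, with 53 of 235 in resistant and 57 of 200 in wild-type cells for 2 or more exons, and 1 of 113 in resistant and 1 of 99 in wild-type cells for 1 exon. Transcripts of antisense genes with 2 or more rows were at 229 of 809 in resistant cells and 201 of 718 in wild type. Spliced members thus showed counts of 0 beside counts of 100 or more although each gene has 1 row. At a limit of 1000 counts few spliced members did so, 1 of 32 in resistant cells and 3 of 25 in wild type, while transcripts of antisense genes with 2 or more rows stood at 22.8% in resistant cells and 18.9% in wild type. The likeness of these classes therefore held at the lower limit only. The median absolute log2 difference between libraries was 0.24 in resistant and 0.30 in wild-type cells for 1-exon members, and 0.54 and 0.61 for members of 2 or more exons. The cause was not tested.

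**Figure D3:**
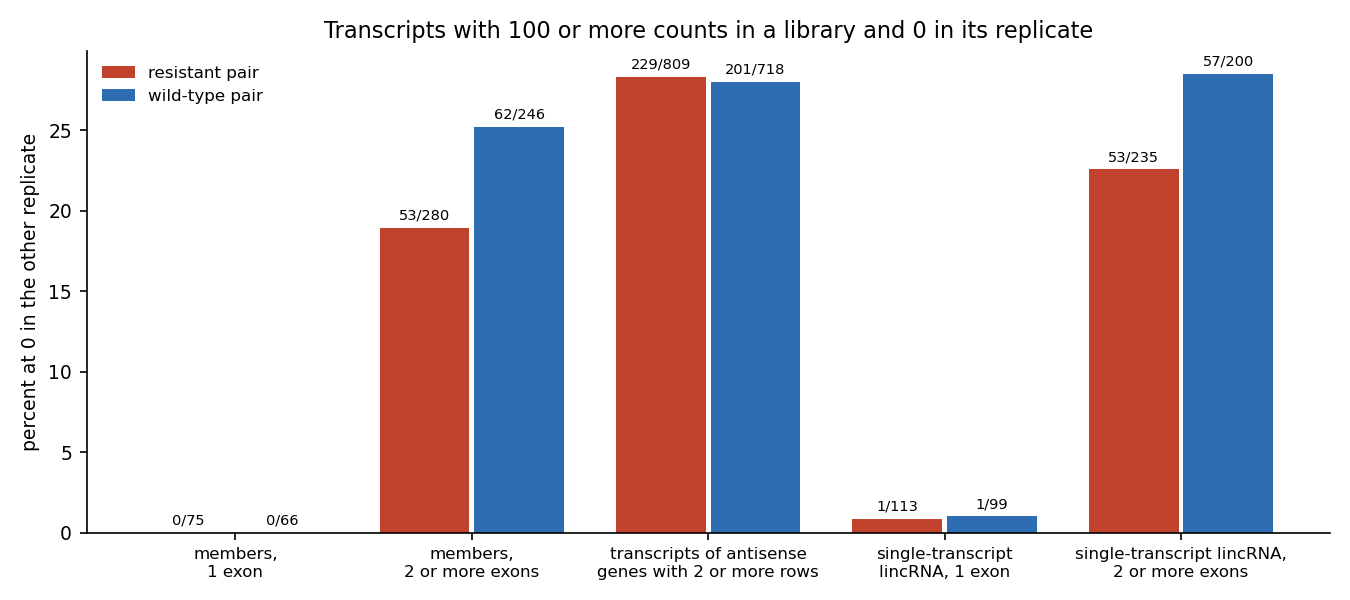
Percent of transcripts with 100 or more counts in one library of a group that had 0 in the other library, for the resistant pair (red) and the wild-type pair (blue), with the numbers above the bars. Members of 1 exon stood at 0 of 75 and 0 of 66, and members of 2 or more exons at 53 of 280 and 62 of 246.

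Since all members at 0 in both libraries of 1 group are spliced, the 1-exon members were looked at on their own, a choice made after their values were seen. Of 307 tested, 13 (4.23%) had an unadjusted p under 0.05, 6 higher and 7 lower, against 7.74% of all transcripts. The members of 2 or more exons had 75 such cases, but 50 of these are the members at 0 in both libraries of 1 group. Of the 721 spliced members counted in both groups 25 (3.47%) had an unadjusted p under 0.05, near the 4.23% of 1-exon members and the 4.29% of all transcripts counted in both groups. All 13 of the 1-exon members overlap exons of their partner, as do 198 of the 307 tested. The shared part differed widely, from 98 of 3951 bases in FBXL19-AS1 to all 837 bases of AL031848.2. Reads in the shared bases could belong to either strand. FBXL19-AS1 had the highest counts, 2410 and 2506 in resistant cells and 927 and 896 in wild-type cells, or 55.04 ± 2.91 CPM in resistant and 26.4 ± 0.984 CPM in wild-type cells (SD, n = 2 each). That is 2.08-fold higher in resistant cells, and edgeR put the log2 fold change at 1.06 ± 0.32 (SE, adjusted p = 0.570). FBXL19 encodes an F-box protein that binds CpG islands, and 98 of its exonic bases are shared with the antisense gene.

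Other 1-exon members of this set lay lower in resistant cells. SLC25A21-AS1, head to head with a mitochondrial carrier gene, had 177 and 186 counts in resistant cells, and 331 and 314 in wild type (log2 fold change -1.20, unadjusted p = 0.0443). TFAP2A-AS2, inside the transcription factor gene TFAP2A, had 39 and 34 in resistant cells, and 147 and 72 in wild type (log2 fold change -1.94, unadjusted p = 0.0338). AL441883.1, inside SIRT5, a mitochondrial deacylase, had 70 and 48 in resistant cells, and 127 and 154 in wild type (log2 fold change -1.63, unadjusted p = 0.0358). In all 3 both resistant libraries lay below both wild-type libraries. AL731566.1, inside NSMCE4A, another subunit of the SMC5/6 complex, went the other way, with 54 and 40 counts in resistant cells, and 5 and 3 in wild type (log2 fold change 3.16, unadjusted p = 0.00998).

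Each member was then set beside the noncoding transcripts of its partner, summed per gene. Both sides passed the filter of the gene-level fit in 655 pairs with 614 partners. Across the 453 pairs whose exons overlap, the Spearman correlation of the log2 fold changes was -0.03, and across the 202 pairs that face introns only it was 0.01. The signs were the same in 48.7% of all pairs. Points share the 4 libraries and, where exons overlap, may share reads, and the correlations are given as descriptions. Head-to-head pairs with exon overlap stood at -0.17 (131 pairs), tail-to-tail pairs with exon overlap at -0.15 (73 pairs) and pairs with exon overlap in which the member lies within the partner at 0.06 (248 pairs). For 231 members whose start lies within 1000 bases of a coding start on the other strand, the correlation with that coding gene was -0.004.

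**Figure D4:**
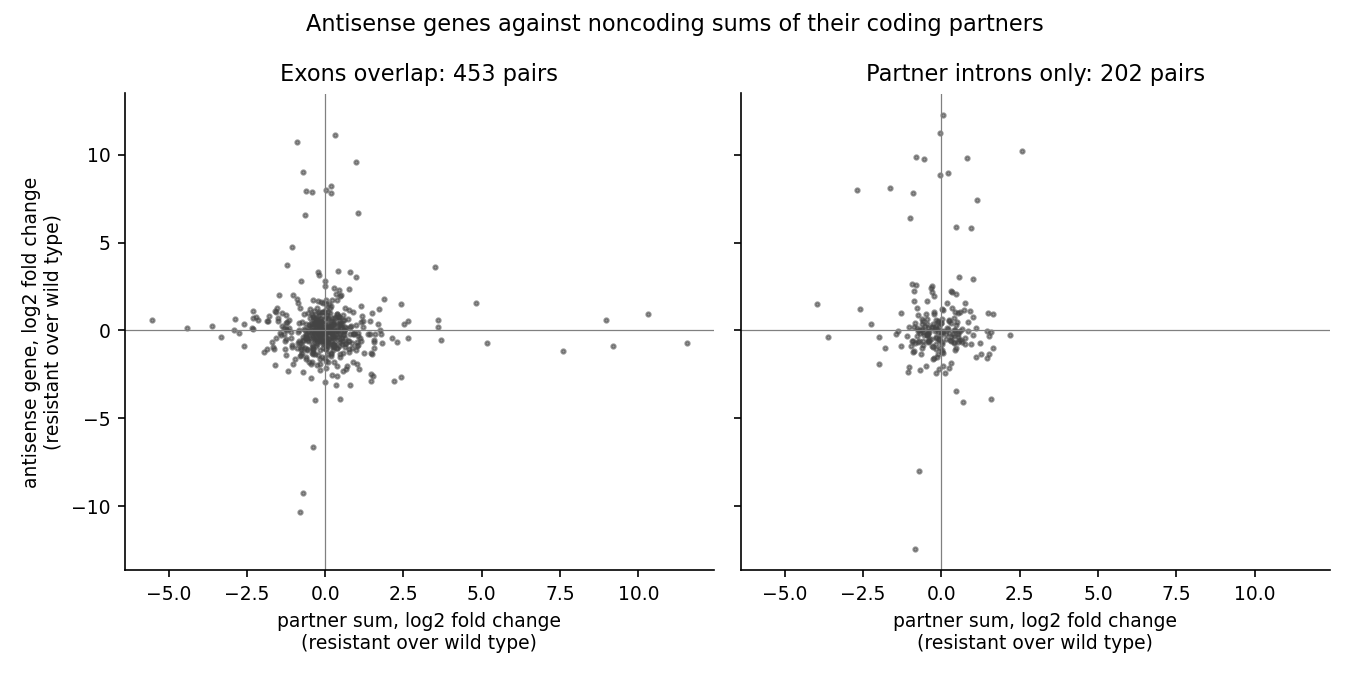
Log2 fold change of the antisense gene against that of the summed noncoding transcripts of its coding partner, both resistant over wild type, for pairs whose exons overlap (left, 453 pairs) and for pairs in which the antisense exons face introns only (right, 202 pairs). Neither panel shows a slope, with Spearman correlations of -0.03 and 0.01, and most points far from 0 on one axis lie near 0 on the other.

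Levels went together no more than changes did. Members had a median of 1.22 CPM per kb of exon and partners a median of 11.5 CPM per kb of the exons of their rows, and 102 of the 655 members stood above their partner. The Spearman correlation of the levels was 0.04 over all pairs. It was 0.48 in the 26 tail-to-tail pairs that face introns only and at most 0.07 in size in the other classes split by both arrangement and overlap. The partners themselves resembled other genes. Of 1630 distinct partners tested, 144 had an unadjusted p under 0.05, 72 higher and 72 lower, or 8.83% beside 8.67% of all gene sums (4.74% higher and 3.93% lower). At an adjusted p under 0.05, 0 passed in edgeR and 0 in limma-voom, while DESeq2 called 81, beside 4.6% of all gene sums.

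In 7 pairs both strands had an unadjusted p under 0.05, 2 with both higher in resistant cells and 5 in opposite directions. Of the 655 pairs, 57 had such a p for the member and 55 (8.40%) for the partner, and the 7 are 12.3% of the 57. Among the 7, AC068533.3 and ITGB5-AS1 were at 0 in both wild-type libraries. They passed the filter through the resistant libraries alone and so had to differ. So small a count is given as a description, and nothing is read from it. AC068533.3 and CRCP were both higher, and the noncoding sum of CRCP was 1764 and 1602 counts in resistant cells, and 207 and 220 in wild type (log2 fold change 2.59 ± 0.31 SE, edgeR adjusted p = 0.323). AL049543.1 and ZBED9, a zinc finger gene derived from a transposase, were also both higher. AL049543.1 had 556 and 812 counts in resistant cells, and 181 and 121 in wild type, and ZBED9 had 482 and 377, against 89 and 90. Exons of this pair overlap, those of AC068533.3 and CRCP do not.

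Among the opposite pairs, CDK13 had 20286 and 16389 noncoding counts in resistant cells, and 9318 and 8219 in wild type (log2 fold change 0.68, unadjusted p = 0.0499), while AC072061.1 was lower. MIB2, a ubiquitin ligase of Notch signalling, had 3315 and 2173 counts in resistant cells, and 847 and 672 in wild type, and AL691432.2 head to head with it had 30 and 16, against 112 and 85. ZNF217, a transcription factor gene amplified in some cancers, had 2495 and 3531 in resistant cells, and 1206 and 966 in wild type, and AL157838.1 had 23 and 23, against 109 and 52. In these 3 pairs the partner was the higher side in resistant cells.

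ITGB5, an integrin subunit, and ADAMTSL4, an extracellular matrix protein, were the lower side of their pairs. ITGB5 had 15138 and 13315 noncoding counts in resistant cells, and 18531 and 21760 in wild type, and ITGB5-AS1 had 13 and 49, against 0 and 0. ADAMTSL4 had 196 and 197 in resistant cells, and 529 and 313 in wild type, and AL356356.1 had 75 and 42, against 9 and 13. None of the 7 pairs passed an adjusted p under 0.05 on either strand in edgeR.

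**Figure D5:**
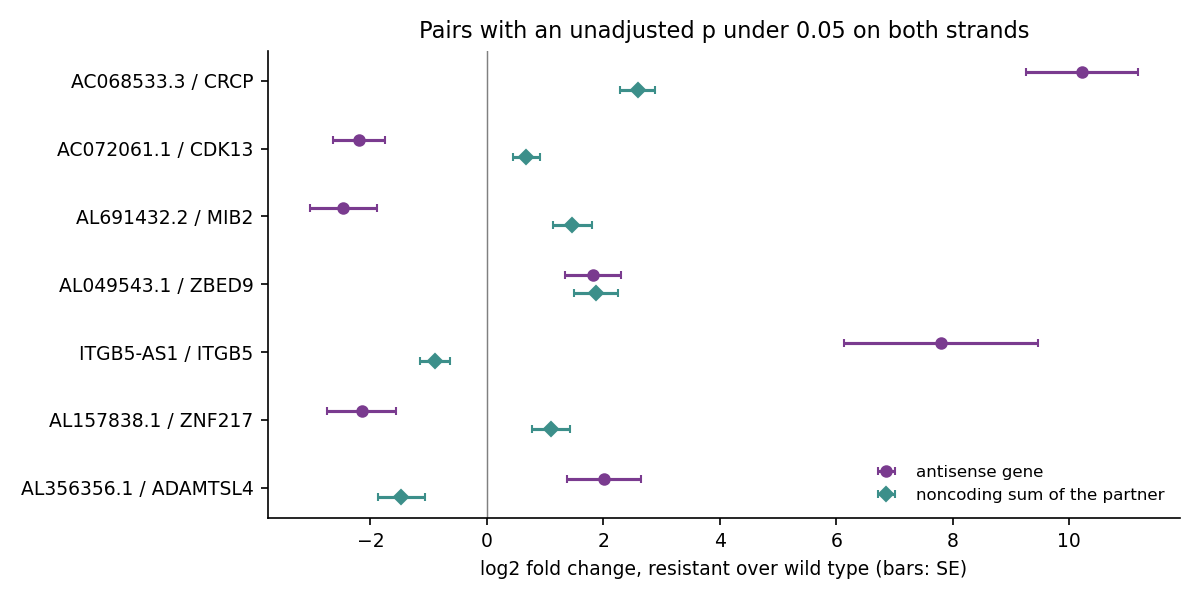
Log2 fold change, resistant over wild type, with its standard error, of the antisense gene (purple circles) and of the summed noncoding transcripts of its partner (green diamonds) for the 7 pairs with an unadjusted p under 0.05 on both strands. AC068533.3 with CRCP and AL049543.1 with ZBED9 lie on the same side of 0, and the other 5 pairs lie on opposite sides. AC068533.3 and ITGB5-AS1 had 0 counts in both wild-type libraries, so they had to differ.

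Some pairs with overlapping exons were well counted on both sides. Reads in the shared bases could belong to either strand, so it is not known whether the counts separate the strands there. SLFNL1-AS1, tail to tail with the Polycomb gene SCMH1, had 7006 and 6009 counts in resistant cells, and 11180 and 8657 in wild type (log2 fold change -0.98 ± 0.29 SE, edgeR adjusted p = 0.558), while SCMH1 had 16521 and 15547, against 10325 and 8512. AC036176.1, head to head with the sphingolipid enzyme gene KDSR, had 1524 and 1850 counts in resistant cells, and 36 and 570 in wild type, where the libraries lay far apart. AL078612.1, inside RCN1, which encodes a calcium-binding protein of the endoplasmic reticulum, had 290 and 74 in resistant cells, and 74 and 33 in wild type. All 150 exonic bases of AL078612.1 face exons of RCN1. MIF-AS1, tail to tail with the cytokine gene MIF, had 1877 and 2427 counts in resistant cells, and 1958 and 2362 in wild type, and the groups overlapped. On the gene scale MIF-AS1 stood at 45.6 CPM per kb and the noncoding sum of MIF at 25.5. Of the 1476 exonic bases of MIF-AS1, 687 face exons of MIF. Reads of MIF, whose mRNA is not measured here, may therefore be among the counts of MIF-AS1, and which strand was higher cannot be told.

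A list of 115 known antisense lncRNAs held 21 members, of which 12 passed the filter. At an unadjusted p under 0.05 there were 3 higher and 0 lower, where 4.56% of all transcripts were higher, and 0 passed after adjustment in edgeR. Of these, 2 were at 0 in wild type and passed the filter through the resistant libraries alone, so nothing is read from the count. The 3 were SMC5-AS1, FBXL19-AS1 and TRIM31-AS1, the last of which had 77 and 19 counts in resistant cells, and 0 and 0 in wild type. The list median of the log2 fold change was 0.10, against 0.02 for all transcripts.

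None of the other 9 had an unadjusted p under 0.05. EGFR-AS1, inside the growth factor receptor gene EGFR, had 352 and 333 counts in resistant cells, and 380 and 430 in wild type (log2 fold change -0.62, unadjusted p = 0.193), and its CPM values did not overlap between the groups. It stood at 4.20 CPM per kb while the noncoding transcripts of EGFR stood at 1850 CPM per kb. HOXC13-AS, beside the homeobox gene HOXC13, had 851 and 494 in resistant cells, and 293 and 296 in wild type (log2 fold change 0.81, unadjusted p = 0.163), again with no overlap. HDAC11-AS1, head to head with a histone deacetylase gene, had 48 and 72 in resistant cells, and 34 and 53 in wild type, and its groups overlapped, while the HDAC11 sum was 105 and 45 in resistant cells, and 242 and 320 in wild type (log2 fold change -2.31, unadjusted p = 0.0233). FOXC2-AS1 had 76 and 56 in resistant cells, and 62 and 33 in wild type, and EZR-AS1, beside the ezrin gene, had 11 and 31, against 31 and 25. SMAD5-AS1, head to head with a gene of BMP signalling, had 18 and 16 counts in resistant cells, and 38 and 29 in wild type (log2 fold change -1.34, unadjusted p = 0.0682).

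Members were also grouped by what their partner does. Of the 28 members that face DNA repair genes, 8 passed the filter and 2 had an unadjusted p under 0.05, both higher in resistant cells, where 4.56% of all transcripts were. One of them was at 0 in wild type and so passed the filter through the resistant libraries alone, and nothing is read from the count. AL121820.1, in introns of the recombination gene RAD51B, had 18 and 14 counts in resistant cells, and 3 and 2 in wild type, and AC018410.2, in introns of the damage recognition gene DDB2, had 20 and 11, against 0 and 0. The best counted were AC090912.1, given with RBBP8, and AL355075.4, head to head with PARP2, a poly(ADP-ribose) polymerase. AL355075.4 had 414 and 787 counts in resistant cells, and 802 and 819 in wild type, and its log2 fold change of -0.80 ± 0.51 (SE) had an unadjusted p of 0.202.

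Platinum transport and detoxification genes had 11 members, 4 of which were tested, and all 4 had a lower mean in resistant cells, 1 of them at an unadjusted p under 0.05, where 3.18% of all transcripts were lower. AC079305.1, opposite exons of NFE2L2, the transcription factor NRF2 of the oxidative stress response, had 12 and 11 counts in resistant cells, and 41 and 72 in wild type (log2 fold change -2.67, unadjusted p = 0.0177, edgeR adjusted p = 0.407). A second NFE2L2 antisense gene, AC019080.4, had 87 and 75 in resistant cells, and 103 and 94 in wild type, and both share 1 partner. AC089983.1, in introns of the thioredoxin reductase gene TXNRD1, had 1884 and 1961 in resistant cells, and 2228 and 2340 in wild type, where the resistant libraries were deeper (log2 fold change -0.62, unadjusted p = 0.129). The list's median was -0.64, against 0.02 for all transcripts, and so few members allow no reading.

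For genes of the p53 pathway and apoptosis 5 of 11 members were tested, 4 with a higher mean. Of these 5, 0 had an unadjusted p under 0.05, beside 7.74% of all transcripts, and so few members allow no reading. AC025423.4, opposite exons of MDM2, the ubiquitin ligase of p53, had 95 and 91 counts in resistant cells, and 39 and 43 in wild type (log2 fold change 0.80, unadjusted p = 0.160). AL117381.1, in introns of the survival gene BCL2L1, had 129 and 192, against 32 and 0. Liver factor and enzyme genes had 14 members and 3 tested, of which CEBPB-AS1, beside the transcription factor gene CEBPB, had 84 and 164 counts in resistant cells, and 32 and 35 in wild type (unadjusted p = 0.0730). AC008738.5, opposite the liver factor gene CEBPA, had 0 and 24 in resistant cells, and 17 and 14 in wild type.

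Genes of epithelial-mesenchymal transition, adhesion and invasion had 33 members and 17 tested, 2 higher and 1 lower at an unadjusted p under 0.05, where 4.56% of all transcripts were higher and 3.18% lower. Both higher ones were at 0 in wild type and passed the filter through the resistant libraries alone, so nothing is read from their count. The higher ones were ITGB5-AS1 and AL356124.2, opposite exons of the laminin gene LAMA2, with 11 and 15 counts in resistant cells, and 0 and 0 in wild type. The lower one was COL4A2-AS1, opposite a basement membrane collagen gene, with 5 and 7 counts in resistant cells, and 17 and 18 in wild type. AC079313.1, which spans the integrin gene ITGA5, was counted at 435 and 6114 in resistant cells, and 198 and 299 in wild type, so that 1 library sets its mean. AC110015.1, inside the cadherin gene CDH2, had 250 and 0 in resistant cells, and 143 and 202 in wild type. The resistant libraries of AC110015.1 thus disagreed, as did those of AC079313.1, and CDH2 itself had no noncoding row.

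Chromatin, splicing and RNA genes had 27 members and 11 tested, 8 with a lower mean. Of these 11, 0 had an unadjusted p under 0.05, beside 7.74% of all transcripts, and so few members allow no reading. AC008781.1, tail to tail with the histone deacetylase gene HDAC3, had 13 and 35 counts in resistant cells, and 198 and 30 in wild type. AL035658.1, tail to tail with the acetyltransferase gene EP300, had 0 and 105 in resistant cells, and 0 and 52 in wild type. In both, the spread within a group was as large as the difference between the groups.

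DEPDC1-AS1, whose promoter is printed with the sequences, ranked just below the 8 higher members of smallest p and is named after its values were seen. It starts head to head with DEPDC1, a gene expressed in dividing cells, had 1770 and 1960 counts in resistant cells, and 327 and 296 in wild type, and did not overlap between the groups. Its log2 fold change was 2.21 ± 0.35 (SE), with an unadjusted p of 0.00526 and an edgeR adjusted p of 0.329.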

How the data were processed

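The deposited table holds the authors' estimated counts of noncoding transcripts as whole numbers, a unit read from the values, for 2 resistant and 2 wild-type libraries made from 2 µg of total RNA and read in pairs of 150 bases, per the labels. Aligner, counter and strand setting were not given in the sources used here, and the submitters' processing notes name the mouse build mm9 although the identifiers are human. Genes, exons and positions are from GENCODE release 29 on GRCh38, counted from 1.

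Counts were tested with edgeR 4.0.16 (TMM scaling, filter at a minimum count of 10, quasi-likelihood test, two-sided, Benjamini-Hochberg over all tested rows, group as the only term), once per transcript (42393 rows) and once per gene sum (13745), and only rows of antisense genes and partners are given. DESeq2 1.42.0 and limma 3.58.1 (voom) were alternatives, beside other scaling, no filter, a replicate block, each library left out, gene sums and other overlap limits. The fits were also run on counts simulated with less spread than these transcripts and gene sums show. That run therefore does not tell what the test could find in these data. The limit behind a 0 is 3 counts, or 0.0660 to 0.0908 CPM, for counting error only. Transcript and gene CPM scales differ.

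Named genes are the 8 members of smallest p in each direction, the 5 of highest CPM per kb, the 8 of highest level on the known list, the 2 of highest level on each partner list and the 5 best counted exon-overlap pairs; other named members were picked after their values were seen. Members and lists were chosen with earlier results of these data known.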

Additional observations from a re-analysis of the deposited data

How the results depend on the processing

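The count of members at an adjusted p under 0.05 was 0 in edgeR with other scaling, with no filter, with the replicate block, with each library left out, on gene sums, and in limma-voom, and 58 in DESeq2. For partner sums it was 0 under the same alternatives and 81 in DESeq2. At an unadjusted p under 0.05 the 88 members became 38 with the replicate block and between 47 and 102 when 1 library was left out, and the 144 partner sums became 105 with the block and between 113 and 165. With 1000 counts in place of 100 as the limit, the share of members at 0 in the other library of the group was 2.70% in resistant cells and 10.7% in wild type, in place of 14.9% and 19.9%, and that of single-transcript lincRNA genes 2.22% and 10.8%, in place of 15.5% and 19.4%. The labels do not say whether same-numbered libraries of the 2 groups belong together. Their deviations had a correlation of 0.008 over the tested transcripts, which with 2 libraries a group does not settle it. The correlation of log2 fold changes over exon-overlap pairs ran from 0.023 to 0.079 when 1 library was left out, the highest without wild-type replicate 1, and over intron-only pairs from -0.05 to 0.11.

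Among 42 named members, DESeq2 moved 16 past the threshold, and 5 changed direction when 1 library was left out: AC008738.5 (between -7.11 and 0.29), AC110015.1 (between -10.57 and 0.12), FOXC2-AS1 (between -0.22 and 0.56), AL035658.1 (between -7.92 and 8.65) and HDAC11-AS1 (between -0.27 and 0.51), all as log2 fold changes. The cause was not tested. A fit without 1 library assumes that the lone library varies like the other group. The median count of tested members was 38 and 36.5 in the resistant libraries, and 29 and 27 in the wild-type libraries.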
